A study of Mus musculus with 6 samples.

Results

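Cytokine signalling through JAK kinases and STAT transcription factors was examined at the mRNA level in follicular B cells of mice with a B cell deletion of Myh9, the gene of the myosin IIa heavy chain. The genes were taken by name: the SOCS genes Socs1, Socs2, Socs3 and Cish, the STAT genes Stat3, Stat5a, Stat5b and Stat6, and the receptor genes Il4ra and Il21r. These 10 genes, of 20458 gene names in the table, hold 13 of its 25017 entries. Each entry joins those transcripts of a gene that share 1 coding sequence.

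RNA was sequenced from follicular B cells of C57BL/6 mice, sorted as B220+AA4.1-CD23+CD21lo, with 3 mice of genotype CD23Cre+Myh9wt/fl and 3 of genotype CD23Cre+Myh9fl/fl. All 6 samples carry the CD23Cre transgene, in which Cre follows the CD23 (Fcer2a) promoter. Cre removes exon 3 of Myh9 between LoxP sites, from 1 allele in wt/fl cells and from both in fl/fl cells, so the reference cells are haploinsufficient and not wild-type; fl/fl cells are called deficient. The labels do not give the age of the mice. The table gives 1 value per entry and genotype, which the authors pooled over the 3 samples, in FPKM, that is, fragments scaled by transcript length and by the number of mapped fragments. No spread between samples can therefore be given, no difference was tested, and each value below is a description of the pooled libraries.

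Receptors of this class have no kinase of their own. Ligand binding brings together receptor chains that carry JAK kinases, the JAKs phosphorylate the receptor tails, and STAT proteins dock there, are phosphorylated and enter the nucleus as dimers. IL-4 acts on B cells mainly through Stat6 and promotes class switching and expression of CD23 and MHC class II, whereas IL-21 acts mainly through Stat3 in germinal center and plasma cell responses. SOCS proteins and Cish are feedback inhibitors that are transcribed in response to STATs. They bind JAKs or receptors and, through a SOCS box, bring in a ubiquitin ligase.

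STAT dimers prefer a palindrome of TTC and GAA around 3 free bases, TTCNNNGAA, which reads the same on both strands (N is any base), and Stat6 also takes TTC and GAA around 4 free bases, likewise a palindrome. RefSeq windows on GRCm38.p6, from 250 bases before to 50 bases after a gene start, were found for 9 of the 10 genes (11 windows). Of these, the windows of 2 genes, Cish and Socs3, hold TTCNNNGAA, a motif present in 8.30% of all 32851 windows. The form with 4 free bases was in 0 of the 11 windows and in 6.95% of all windows. The stretches with the motif are shown because STATs act on feedback genes of this kind, and the capitals mark the motif. The Cish stretch lies at chr9:107296659-107296678 on the + strand and covers the first 20 bases after the RefSeq start. The Socs3 stretch lies at chr11:117969492-117969540 on the - strand, with its motif at −154 to −146 from the start. A match describes the letters of these windows only, and no binding was measured.
Cish: TTCCTGGAAagTTCTTGGAA
Socs3: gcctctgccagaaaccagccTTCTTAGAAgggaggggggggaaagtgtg

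Myh9 itself (chromosome 15 from 77591019 to 77672545, mm9) stood at 50.6 FPKM in haploinsufficient and 21.1 FPKM in deficient cells, or 41.7% of the haploinsufficient level. Summed over all entries, FPKM was 595296 for the haploinsufficient and 596105 for the deficient cells, and read depth per sample is unknown. Of the 7 B cell markers compared, all averaged 1 FPKM or more and 0 differed by 1.5-fold. Their summed level was 4739 FPKM in haploinsufficient and 5009 FPKM in deficient cells. For differences, FPKM was summed per gene, genes that averaged 1 FPKM or more were compared (9879 genes, 8 of the 10 described here), and a log2 ratio of fl/fl over wt/fl was taken after adding 1 FPKM to each value. A gene counted as past the fold at a ratio of 1.5 in either direction.

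Among the 10 genes, receptor and STAT mRNAs had the higher levels and those of Socs1, Socs2, Socs3 and Cish were scarce. Stat6, the IL-4-responsive STAT (chromosome 10 from 127080042 to 127103759), had the highest mean of the 10 genes, 58.2 FPKM, above 94.0% of all gene names. Of all gene names, 10579 averaged under 1 FPKM. Il21r and Il4ra followed at 54.2 and 46.0 FPKM, and Stat3 at 40.0 FPKM. Stat5b and Stat5a, which encode the STAT5 proteins used by IL-2, IL-7 and related cytokines, were lower at 12.0 and 9.84 FPKM. By mean they ranked 5396 and 6024 from the top, where 9879 gene names averaged 1 FPKM or more. The SOCS genes lay at the bottom, with means of 2.06 FPKM for Socs3, 1.36 for Socs1, 0.259 for Socs2 and 0.125 for Cish. From Stat6 to Cish the mean FPKM spanned 465-fold. The order was not the same in both genotypes, since Il21r was above Stat6 and Socs1 above Socs3 in fl/fl cells. Whether neighbours in this order differ cannot be judged without a spread between samples.

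**Figure D1:**
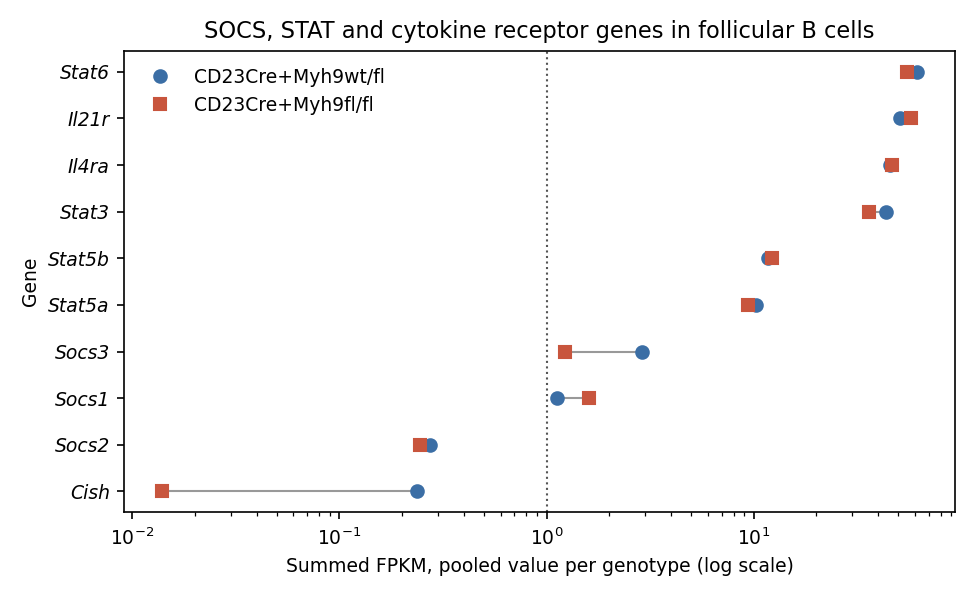
Pooled FPKM, summed over the entries of each gene, on a log axis for CD23Cre+Myh9wt/fl (blue circles) and CD23Cre+Myh9fl/fl (red squares) follicular B cells, with genes ordered by mean level and 1 FPKM marked by the dotted line. The receptors and STATs lie between 9.41 and 61.5 FPKM with their symbols close together, whereas the SOCS genes lie at or under 2.90 FPKM, and Socs3 and Cish show the widest gaps.

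Of the 8 genes compared, 1 was past the fold and lower in fl/fl cells, Socs3, and 0 were past it and higher. Among all 9879 genes, 1.53% were past the fold and lower and 0.79% past it and higher. Their median log2 ratio was −0.037, and that of all genes compared was 0.0026. In bulk RNA, fewer cells of a type and less RNA per cell cannot be told apart.

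Socs3 encodes the inhibitor of gp130 and related receptors that act through Stat3. It has a single entry (chromosome 11 from 117827401 to 117830680) at 2.90 FPKM in haploinsufficient and 1.22 FPKM in deficient cells, 42.1% of the wt/fl level. The log2 ratio was −0.81 with 1 FPKM added and −1.25 with none. The gene is weakly expressed, and weakly expressed genes differed more often: with a mean between 1 and 5 FPKM, 3.93% of 2138 genes were past the fold and lower, and 2.43% past it and higher. Neutrophil markers were lower in fl/fl as well. Of the 8 compared, 7 were past the fold and lower, and the summed level of the 10 listed went from 379 FPKM in wt/fl to 68.0 FPKM in fl/fl. Elane and Mpo, too low to be compared, were at 0.119 and 0.0916 FPKM in wt/fl and listed at 0 in fl/fl. The part of neutrophils in the level of Socs3 was not tested. Plasma cell markers were past the fold and lower in 2 of 2 genes compared, erythroid markers in 1 of 1 and macrophage and monocyte markers in 1 of 5, whereas 0 of 4 T cell markers were past it. The summed levels of the whole lists were 8.77 and 2.65 FPKM for plasma cell, 55.2 and 7.52 FPKM for erythroid, 91.9 and 60.7 FPKM for macrophage and monocyte, and 22.8 and 21.4 FPKM for T cell markers, with the haploinsufficient value first. Single genes carried most of each of these haploinsufficient sums: Igj (5.40 and 0.617 FPKM), Beta-s (52.0 and 7.08 FPKM), Lyz2 (72.6 and 44.9 FPKM) and Lck (14.5 and 14.5 FPKM). Of the 4 T cell markers compared, 2 were higher and 2 lower by any amount. The lower were Cd3d (3.02 and 2.31 FPKM) and Cd3g (1.96 and 1.26 FPKM). Of the 5 macrophage and monocyte markers compared, C1qb was higher (1.61 and 2.39 FPKM) and 4 were lower by any amount.

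The other SOCS genes of the set went either way. Socs1, an inhibitor that binds JAK kinases directly (chromosome 16 from 10783902 to 10785629), was at 1.12 FPKM in haploinsufficient and 1.60 FPKM in deficient cells, a log2 ratio of 0.29 in the opposite direction. Socs2, best known for restraining growth hormone signalling through STAT5 (chromosome 10 from 94874124 to 94879491), was at 0.273 and 0.245 FPKM. Cish, an early target of STAT5 (chromosome 9 from 107199020 to 107204292), was at 0.237 FPKM in haploinsufficient and 0.0139 FPKM in deficient cells. Socs2 and Cish did not reach a mean of 1 FPKM and were not compared. The log2 ratio of Cish was −0.29 with 1 FPKM added and −1.56 with 0.1 FPKM added, so its size is set largely by the added value.

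**Figure D2:**
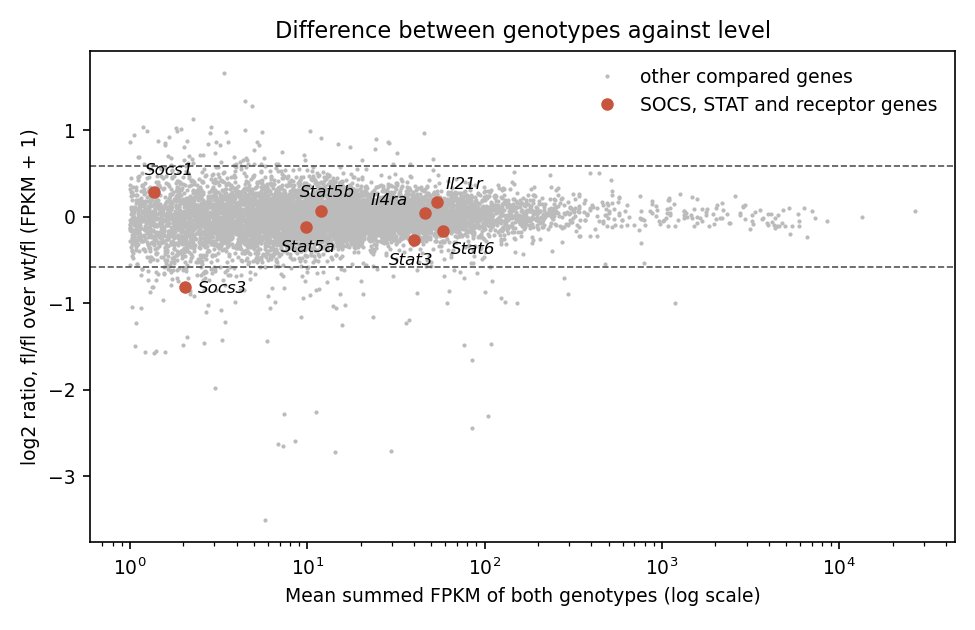
Log2 ratio of fl/fl over wt/fl (1 FPKM added to each summed value) against the mean summed FPKM of both genotypes on a log axis, for genes averaging 1 FPKM or more; grey points are all other genes, red points the 8 SOCS, STAT and receptor genes compared, and dashed lines mark 1.5-fold. Socs3 at −0.81 is the only red point outside the lines, in the range of low levels where the grey points also spread most.

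Both receptor mRNAs lay within 1.5-fold between the genotypes. Il4ra encodes the alpha chain that binds IL-4 (chromosome 7 from 132695796 to 132722988) and was at 45.3 FPKM in haploinsufficient and 46.7 FPKM in deficient cells, a log2 ratio of 0.04. Il21r encodes the IL-21-binding chain and follows Il4ra on the same chromosome after 24.0 kilobases (132746943 to 132777084). It was at 50.8 and 57.6 FPKM, a log2 ratio of 0.18 and the highest of the 6 STAT and receptor genes of the set. Both chains signal together with the common gamma chain encoded by Il2rg, which was more abundant than either at 330 FPKM in haploinsufficient and 345 FPKM in deficient cells, with a log2 ratio of 0.06.

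Among the STAT genes, Stat6 was at 61.5 FPKM in haploinsufficient and 54.9 FPKM in deficient cells, a log2 ratio of −0.16. Stat3 (chromosome 11 from 100748124 to 100800825) was at 43.8 and 36.3 FPKM summed over 3 entries, a log2 ratio of −0.26. Stat5a (100720665 to 100746483) was at 10.3 and 9.41 FPKM summed over 2 entries, and Stat5b (100642045 to 100711899) was at 11.7 and 12.3 FPKM in a single entry, with log2 ratios of −0.12 and 0.06. None of these reached the fold. The STAT5 genes lie 8765 bases apart on chromosome 11 and encode closely related proteins. In the GENCODE M21 annotation, 26.1% of the 50-base windows in the Stat5a coding sequence of 793 residues also occur in that of Stat5b, so fragments from those parts could be split between the genes and their separate levels are uncertain.

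Below the level of whole genes, the entries of Stat3 and Stat5a differed in opposite directions. The entries are numbered here by their level in wt/fl cells. Entry 1 of Stat3 was higher in fl/fl, at 16.9 FPKM in haploinsufficient and 21.1 FPKM in deficient cells. Entry 2 of Stat3 was lower, at 15.2 and 11.3 FPKM. Entry 3 of Stat3 was at 11.6 FPKM in haploinsufficient and 3.90 FPKM in deficient cells, a log2 ratio of −1.36, and it was the only one of the 5 entries past the fold. Its part of Stat3 FPKM was 26.5% in haploinsufficient and 10.8% in deficient cells, while entry 1 went from 38.7% to 58.1%. Entry 1 of Stat5a was at 7.31 and 4.70 FPKM and entry 2 at 2.96 and 4.71 FPKM, so that entry 2 made up 28.8% of the gene in wt/fl and about as much as entry 1 in fl/fl.

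Single entries of a gene differed often throughout the table. Of the 3329 entries averaging 1 FPKM or more that share their gene with other entries, 7.66% were past the fold and lower and 7.87% past it and higher. The largest change in the share of an entry was 19.4 percentage points for Stat3 and 21.2 for Stat5a. Among the 1774 genes with several entries and an average of 1 FPKM or more, the median of this change was 5.83 points, and 12.5% of genes had a larger one than Stat3 and 10.8% a larger one than Stat5a.

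**Figure D3:**
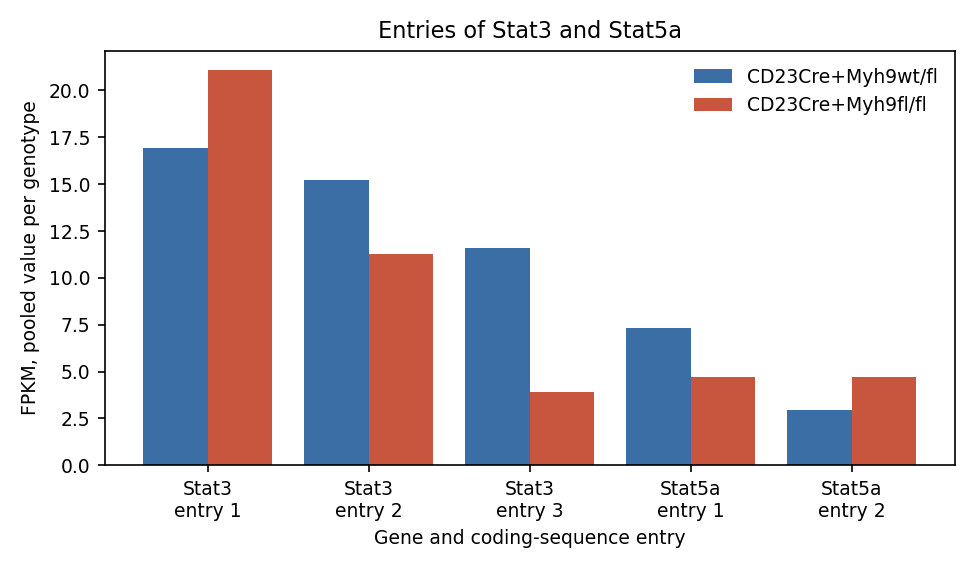
Pooled FPKM of the 3 entries of Stat3 and the 2 entries of Stat5a, numbered by their level in wt/fl, in CD23Cre+Myh9wt/fl (blue bars) and CD23Cre+Myh9fl/fl (red bars) cells; there are no error bars because each bar is 1 pooled value. Entry 3 of Stat3 drops from 11.6 to 3.90 FPKM while entry 1 goes from 16.9 to 21.1 FPKM, and the entries of Stat5a meet at 4.70 and 4.71 FPKM in fl/fl.

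The annotated coding sequences of Stat3 differ from the full-length form by the 3 stretches shown here, since the entries of Stat3 are defined by coding sequence. In GENCODE M21 on GRCm38, the full-length form encodes 770 residues. Another form of 769 residues lacks 3 bases, a form of 744 residues lacks 78 bases, and a form of 722 residues, known as Stat3beta, lacks 50 bases and ends in another reading frame without the C-terminal transactivation domain. The capitals mark the bases of the full-length form that the shorter one lacks, coding bases 2101 to 2103, 275 to 352 and 2146 to 2195 in the order below, with flanking coding bases in lower case.
Absent from the 769-residue form: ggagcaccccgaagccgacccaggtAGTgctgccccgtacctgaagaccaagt
Absent from the 744-residue form: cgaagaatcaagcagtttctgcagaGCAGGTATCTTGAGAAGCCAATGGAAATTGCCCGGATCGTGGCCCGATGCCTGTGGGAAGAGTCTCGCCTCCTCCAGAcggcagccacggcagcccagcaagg
Absent from the 722-residue form: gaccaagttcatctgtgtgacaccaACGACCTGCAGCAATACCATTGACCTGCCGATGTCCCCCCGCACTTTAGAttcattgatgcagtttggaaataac

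Counting all 4 complete Stat3 coding sequences of that annotation, at most 2.08% of the 50-base windows of any 1 of them were found in no other, and for the full-length form 0 were. These shares belong to the 4 annotated sequences and may differ for the 3 entries of Stat3. Bases outside the coding sequence were not counted. The entries carry no transcript name, so none of them was assigned to a form, and how fragments were divided among them was not tested. Stat5a and Stat3 also lie tail to tail: their spans are 1640 bases apart in the table, but in GENCODE M21 their ends overlap by 72 bases on opposite strands. Fragments from such an overlap cannot be assigned without strand, and the strandedness of the counting is not given in the sources used here.

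The rest of the pathway was read from 8 lists of other genes by role, 77 genes in all, 76 of them in the table and 68 averaging 1 FPKM or more. Of these 68 genes, 2 were past the fold and lower, 0 were past it and higher, and their median log2 ratio was −0.048. This is 2.94% of the genes, beside the 1.53% lower and 0.79% higher among all genes given above.

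Of the 16 type I receptor chains compared, 0 were past the fold, 6 were higher and 10 lower by any amount, and the median log2 ratio was −0.18. Some lay past 1.5-fold only before 1 FPKM was added, and these were named after their values were seen. Lower were Il2rb (2.33 FPKM in haploinsufficient and 1.36 in deficient cells), Il6st (6.11 and 4.02), Csf2rb (3.19 and 2.03) and Csf3r (2.32 and 1.51). Csf3r is also among the neutrophil markers described above, and the part of other cell types in these levels was not tested. Il9r was higher, at 8.42 and 13.0 FPKM. Il2rg and Il27ra, a chain of the IL-27 receptor (21.7 FPKM in haploinsufficient and 22.7 in deficient cells), were the most abundant. The 6 type II receptor chains compared were all lower in fl/fl by any amount, with 0 past the fold and a median of −0.05; of all genes compared, 49.5% were lower by any amount. Il10ra, the IL-10-binding chain, showed the largest difference among them, with 59.1 FPKM in haploinsufficient and 40.9 FPKM in deficient cells and a log2 ratio of −0.52, whereas Ifngr2, a chain of the interferon gamma receptor, was at 50.4 and 48.8 FPKM.

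The 4 JAK kinase genes had 0 members past the fold and a median log2 ratio of −0.03. Jak1, which serves the IL-4 and IL-21 receptors, was at 140.0 FPKM in haploinsufficient and 148 FPKM in deficient cells, and Jak2 was at 31.5 and 31.8 FPKM. Of the 4 genes, 2 were higher and 2 lower by any amount. Jak3, named after its value was seen, differed most, at 9.81 and 7.73 FPKM with a log2 ratio of −0.31. Among STAT genes outside the set, Stat4, known for IL-12 signalling, was at 55.9 FPKM in haploinsufficient and 39.3 FPKM in deficient cells, with a log2 ratio of −0.50.

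The 4 other SOCS genes were more abundant than those of the set and nearly level between the genotypes. Socs4 was at 31.0 FPKM in haploinsufficient and 30.8 FPKM in deficient cells, Socs5 at 10.4 and 10.2 FPKM, and 0 of the 4 were past the fold, with a median of −0.02. Of the 15 phosphatases, PIAS proteins and partners of the SOCS box, 0 were past the fold and the median was −0.02. The most abundant were Ptprc, which encodes the phosphatase CD45 (467 FPKM in haploinsufficient and 575 in deficient cells, log2 ratio 0.30), and Ptpn6, which encodes the phosphatase SHP-1 (311 and 335 FPKM, 0.11).

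Genes downstream of the STATs went both ways. Of 12 genes induced through STAT3 or STAT5, 2 were past the fold and lower in fl/fl, both with low levels. Their means lay between 1 and 5 FPKM, where 3.93% of 2138 genes were past the fold and lower. The part of other cell types, such as neutrophils, in their levels was not tested. Id2, an inhibitor of E proteins, was at 5.12 FPKM in haploinsufficient and 2.83 FPKM in deficient cells, a log2 ratio of −0.68. Bcl2l1, which encodes the survival protein Bcl-xL, was at 1.76 and 0.785 FPKM, a log2 ratio of −0.63. The most abundant genes of this list, Mcl1 at 307 and 324 FPKM and Bcl2 at 65.5 and 66.0 FPKM, differed little, and the median of the list was −0.03. Of the 8 genes induced by IL-4 and Stat6 that were compared, 0 were past the fold, 5 were higher and 3 lower by any amount, and the median was 0.07. H2-Aa was at 6083 FPKM in haploinsufficient and 6545 FPKM in deficient cells and H2-Ab1 at 2360 and 2796 FPKM, both encoding chains of MHC class II. Fcer2a and the 3 lower genes of this list were named after their values were seen. Fcer2a, the CD23 gene, was at 439 FPKM in haploinsufficient and 588 FPKM in deficient cells over 7 entries, a log2 ratio of 0.42, and CD23 was also used to sort these cells. The lower genes were Cd86, a costimulatory ligand, at 16.0 and 11.3 FPKM with a log2 ratio of −0.46, and the transcription factor genes Batf and Xbp1 with log2 ratios of −0.16 and −0.09.

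**Figure D4:**
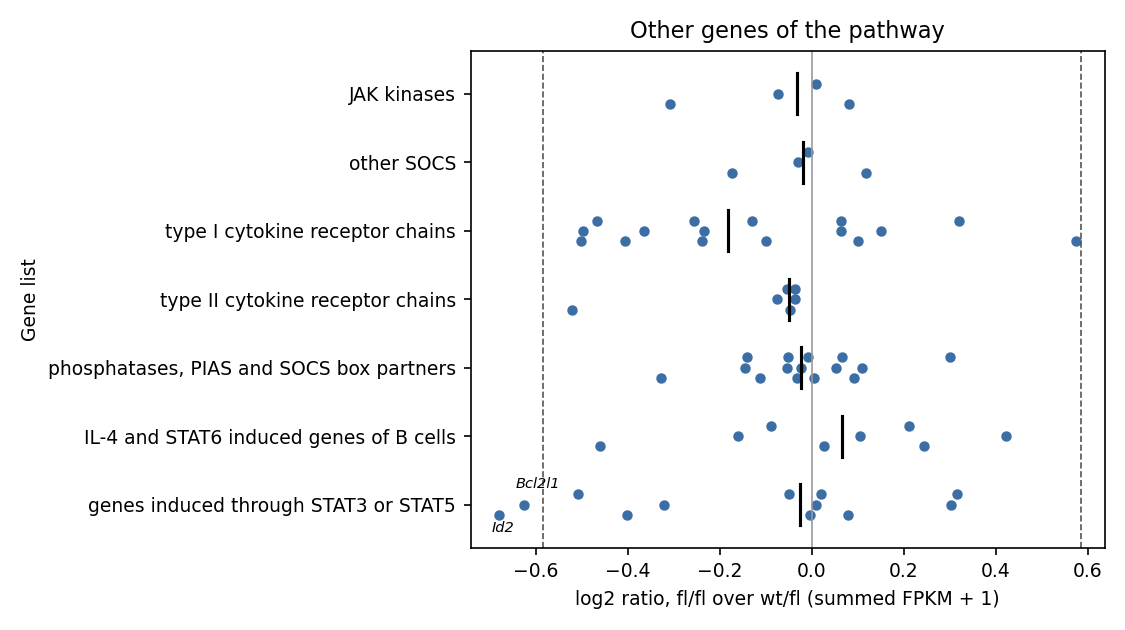
Log2 ratio of fl/fl over wt/fl (1 FPKM added to each summed value) for the genes compared in the pathway lists other than that of further STAT genes, 1 point per gene with small vertical offsets for legibility; black bars are list medians and dashed lines mark 1.5-fold. Id2 at −0.68 and Bcl2l1 at −0.63 are the points outside the lines.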

How the data were processed

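RNA of 6 sorted follicular B cell samples was amplified (Ovation RNA-Seq system V2) before library preparation. The authors deposited 1 table in the layout of Cuffdiff. Per the submitters' processing notes, Bowtie, TopHat and Cufflinks were used; versions, options and strand settings are not given in the sources used here. The FPKM in the authors' deposited table are pooled per genotype. Its other columns hold the authors' own comparison (fold change, test statistic, p-value, q-value, status) and were not used. The notes name mm10, but positions in the table are those of mm9: 118 entries lie on sequences named random, and 185 of 18856 genes matched by symbol start where RefSeq places them on GRCm38. Starts were counted from 0 (6191 genes then have the RefSeq length), and 1 was added here.

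FPKM was summed per gene name with pandas 2.3.3 and numpy 2.4.6 in Python 3.11.15. Filter, added value and fold stand in the report. Counting was tested on simulated data without noise, with 2-fold changes set in well expressed genes only. This checks the counting and not the calls among weakly expressed genes. The design foresaw this pooled table, so no model across samples was fitted and precision is unknown. Named were all 10 genes with their entries, Myh9, and in each pathway list the 2 most abundant genes and those past the fold, except 1 gene that is not reported here. Likeness between genes was not computed from 2 values. Members and lists were chosen with earlier results of these data known. Alternatives were an added value of 0.1 FPKM, a minimum mean of 5 FPKM or none, upper quartile scaling, single entries, and folds of 2 and of 5 to 4.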

Additional observations from a re-analysis of the deposited data

How the results depend on the processing

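No paired analysis was possible because the table holds 1 pooled value per genotype, and for the same reason no sample could be left out in turn. Without the filter on low values and after upper quartile scaling (factor 0.995), all counts stayed within 1.5 times those reported. The other alternatives moved counts past that limit. Of the SOCS, STAT and receptor genes, 1 lower gene became 0 at a mean of at least 5 FPKM and 0 at 2-fold, and 2 when each entry was counted on its own; Socs3, at 2.06 FPKM, is removed by the higher minimum. Of the other pathway genes, 2 lower became 6 with 0.1 FPKM added, 0 at a mean of at least 5 FPKM, 0 at 2-fold and 13 at a ratio of 5 to 4, while 0 higher became 1, 0, 0 and 2, and 6 for single entries. Over all genes, 151 lower and 78 higher became 256 and 158 with 0.1 FPKM added, 67 and 26 at a mean of at least 5 FPKM, 385 and 327 for single entries, 40 and 9 at 2-fold, and 541 and 454 at a ratio of 5 to 4. By construction, a smaller added value widens ratios, most at low levels, and the higher minimum removes low genes. The pathway genes gained with 0.1 FPKM added were all type I receptor chains. Il2rb, Il6st, Csf2rb and Csf3r were lower, Csf3r being also a neutrophil marker. Il9r, with a mean of 10.7 FPKM, was higher. For single entries, the added lower entry of the SOCS, STAT and receptor genes was entry 3 of Stat3. Among the higher pathway entries were entries 4 and 6 of Fcer2a by level in wt/fl, with log2 ratios of 0.74 and 1.02. The other genes behind the moves for single entries were not traced. For the 10 genes, 19 of 20 log2 ratios kept their side of the fold with 0.1 FPKM added or upper quartile scaling; the exception was Cish at −1.56 with 0.1 FPKM added.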

Other observations

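Of the STAT genes, Stat2 and Stat6 lie 604 kilobases apart on chromosome 10 (mm9), with log2 ratios of fl/fl over wt/fl of −0.15 and −0.16. Stat2 is outside the rule for naming genes, and likeness between neighbours was not tested. Il4ra and Il21r lie closer, 24.0 kilobases apart on chromosome 7, with log2 ratios of 0.04 and 0.18. On chromosome 11, Stat5b, Stat5a and Stat3 follow each other with log2 ratios of 0.06, −0.12 and −0.26.

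The 8 genes with the SOCS box that form the Socs1 to Socs7 and Cish family summed to 53.9 FPKM in haploinsufficient and 52.0 FPKM in deficient cells. Socs4 and Socs5 supplied most of this sum in either genotype. Socs3, at 2.90 and 1.22 FPKM, was a small part of the sum, but its decrease was nearly as large as the difference between the sums. With 1 pooled value per genotype, none of these differences was tested.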
